A study of Homo sapiens with 9 samples.

Results

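The BEX and TCEAL genes of HEK 293 cells, an established human embryonic kidney line, were followed on 9 arrays. The members were 10 genes, BEX1, BEX2, BEX4, BEX5, TCEAL1, TCEAL2, TCEAL3, TCEAL4, TCEAL7 and TCEAL8, and every transcript cluster (the array's unit, several probes along 1 transcript) annotated with one of these symbols was taken. This gave 11 clusters of the 25679 with values. The genes were chosen by family after the array values of BEX1 had been seen, that is, selected on its differences from vector, so all differences of members from the vector arrays below are descriptions without a test, and the counts past a threshold carry no weight of their own.

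Each of the 3 groups held 3 arrays, 1 per biological replicate, from transfected cells of this line harvested after 72 h. The control cells received the plasmid without insert (PCMV, called vector here), the second group received Aire, the autoimmune regulator that drives tissue-restricted genes in the thymus, and the third received MBDVP16. MBD commonly stands for a methyl-CpG-binding domain, and VP16 is an activator from a herpesvirus. Neither the promoter nor the species of either insert is given in the labels. All groups share the transfection, and no selection for transfected cells is described, so an array may read cells with and without plasmid together. The labels do not say how cultures were kept apart, so errors measure the spread between these arrays.

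BEX (brain-expressed X-linked) and TCEAL (transcription elongation factor A-like) genes encode small, largely unstructured proteins and lie together on the long arm of chromosome X in placental mammals. They are most abundant in neurons and neuroendocrine cells. Rat and mouse BEX1 and BEX3 bind the p75 neurotrophin receptor, and BEX1 and BEX2 are known to be silenced with promoter methylation in human gliomas. TCEAL proteins resemble the elongation factor TFIIS, and TCEAL1 modulates transcription from several promoters.

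The starts of these genes share a sequence, shown here because it is a common feature that the choice of genes did not use. Upstream sequence of 250 bases before each annotated start was available for 9 of the 10 members, in 12 promoters (RefSeq, GRCh38.p14), and TCEAL7 was not matched. The E-box letters CACGTG, a palindrome that basic helix-loop-helix factors recognise, were present in 8 of these 9 genes. By promoter they were in 8 of 12, against 6.34% of the 35116 promoters in the table. The first base of the E-box lay between 10 and 80 bases before the start. The 8 letters ACGTGACC were in 7 of the 9 genes on either strand, against 1.34% of all promoters. Among all 8-letter words of these same promoters this was the word in the most members, so the share is no test. In the lines that follow, in the direction of transcription, the E-box is in capitals, and for BEX5 these 8 letters.
BEX1 (chrX:103064203-103064242, minus strand): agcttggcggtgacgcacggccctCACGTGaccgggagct
BEX2 (chrX:103310994-103311033, minus strand): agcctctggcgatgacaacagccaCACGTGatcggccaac
BEX4 (chrX:103215065-103215104, plus strand): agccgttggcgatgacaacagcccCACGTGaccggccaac
BEX5 (chrX:102156013-102156052, minus strand): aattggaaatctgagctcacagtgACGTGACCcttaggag
TCEAL1 (chrX:103628895-103628934, plus strand): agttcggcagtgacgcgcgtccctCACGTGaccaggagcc
TCEAL2 (chrX:102125603-102125642, plus strand): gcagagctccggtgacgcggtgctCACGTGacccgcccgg
TCEAL3 (chrX:103607859-103607898, plus strand): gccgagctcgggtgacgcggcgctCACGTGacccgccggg
TCEAL4 (chrX:103585481-103585514, plus strand): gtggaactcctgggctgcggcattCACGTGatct
TCEAL8 (chrX:103255171-103255210, minus strand): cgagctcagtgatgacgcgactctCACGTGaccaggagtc

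For BEX4 and TCEAL1 the E-box was wholly upstream of 1 of 2 annotated starts. The letters TGACG stood before the E-box, with at most 19 bases between, in BEX1, TCEAL1, TCEAL2, TCEAL3 and TCEAL8, 5 of the 9 genes, against 0.245% of all promoters on either strand. BEX2, BEX4 and TCEAL4 lack TGACG there. This search was not among the planned motifs and sets a count of genes beside a share of promoters, so the share is no test. The members are related genes, so their shared letters are not independent. The 3 family genes outside the members whose promoters hold the E-box were BEX3, TCEAL5 and TCEAL6, and in BEX3 and TCEAL6 it began 47 bases before a start, as in BEX1. Of the other motifs searched on both strands, the GC box GGGCGG was in 7 of the 9 genes and 8 of the 12 promoters (42.6% of all promoters). CCAAT was in 3 genes and 4 of the 12 promoters (32.0%). TATAAA (10.7%), TGACGTCA (1.65%), the NRF1 site (5.07%) and ACTTCCGG (3.42%) were in none of these windows. A match of letters does not show that a factor binds.

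The log2 medians of the arrays ran from 6.11 to 6.23 over all clusters, and correlations between arrays of the same group from 0.9879 to 0.9928. The root mean square deviation from the group mean was 0.191 for vector replicate 1 and 0.137 to 0.161 for the other arrays. The AIRE cluster read 6.66, 6.57 and 6.76 on the Aire arrays and 6.32, 6.52 and 6.46 on the vector arrays (limma adjusted p = 0.213), so the labels alone identify the Aire arrays. The MBD1 cluster was higher with MBD-VP16 than with vector by 1.78 ± 0.25 (SE; limma adjusted p = 0.00295). Of 9 measured markers of the cell line 7 lay above the median cluster of the table. Their mean log2 level was 7.91 to 8.0 on the vector arrays, 7.98 to 8.08 on the Aire arrays and 8.16 to 8.25 on the MBD-VP16 arrays, with NEFM higher by 2.40 with MBD-VP16 and KRT18 lower by 0.38 with Aire and by 0.41 with MBD-VP16 (limma adjusted p = 0.0338 and 0.0131). KRT18 passed in 7 of 17 other settings with Aire, with an adjusted p of up to 0.115, and in 16 of 17 with MBD-VP16. Of 13 markers of other cell types 2 lay above the median cluster of the table, CD68 and COL1A1. The mean log2 level of the latter 13 was 5.03 to 5.12 on the vector arrays, 5.05 to 5.10 on the Aire arrays and 5.08 to 5.18 on the MBD-VP16 arrays. CD68 was higher by 0.64 ± 0.11 with MBD-VP16 (limma adjusted p = 0.00809), and the part of these shifts in the results below was not tested.

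BEX1 (Entrez 55859; chromosome X, 102317579 to 102319170, minus strand, by the deposited positions, for which no genome build is stated) was the member with by far the widest range, 2.38 log2 units over the 9 arrays. It read 7.95, 7.92 and 8.02 on the vector arrays, 6.57, 6.50 and 6.57 on the Aire arrays and 5.81, 5.64 and 6.27 on the MBD-VP16 arrays. The 3 groups did not overlap: vector was highest, Aire lay between, and MBD-VP16 was lowest. The group means were 7.96 ± 0.05 with vector, 6.55 ± 0.04 with Aire and 5.91 ± 0.33 with MBD-VP16 (SD, n = 3 each), and the wider spread with MBD-VP16 came from replicate 3.

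**Figure D1:**
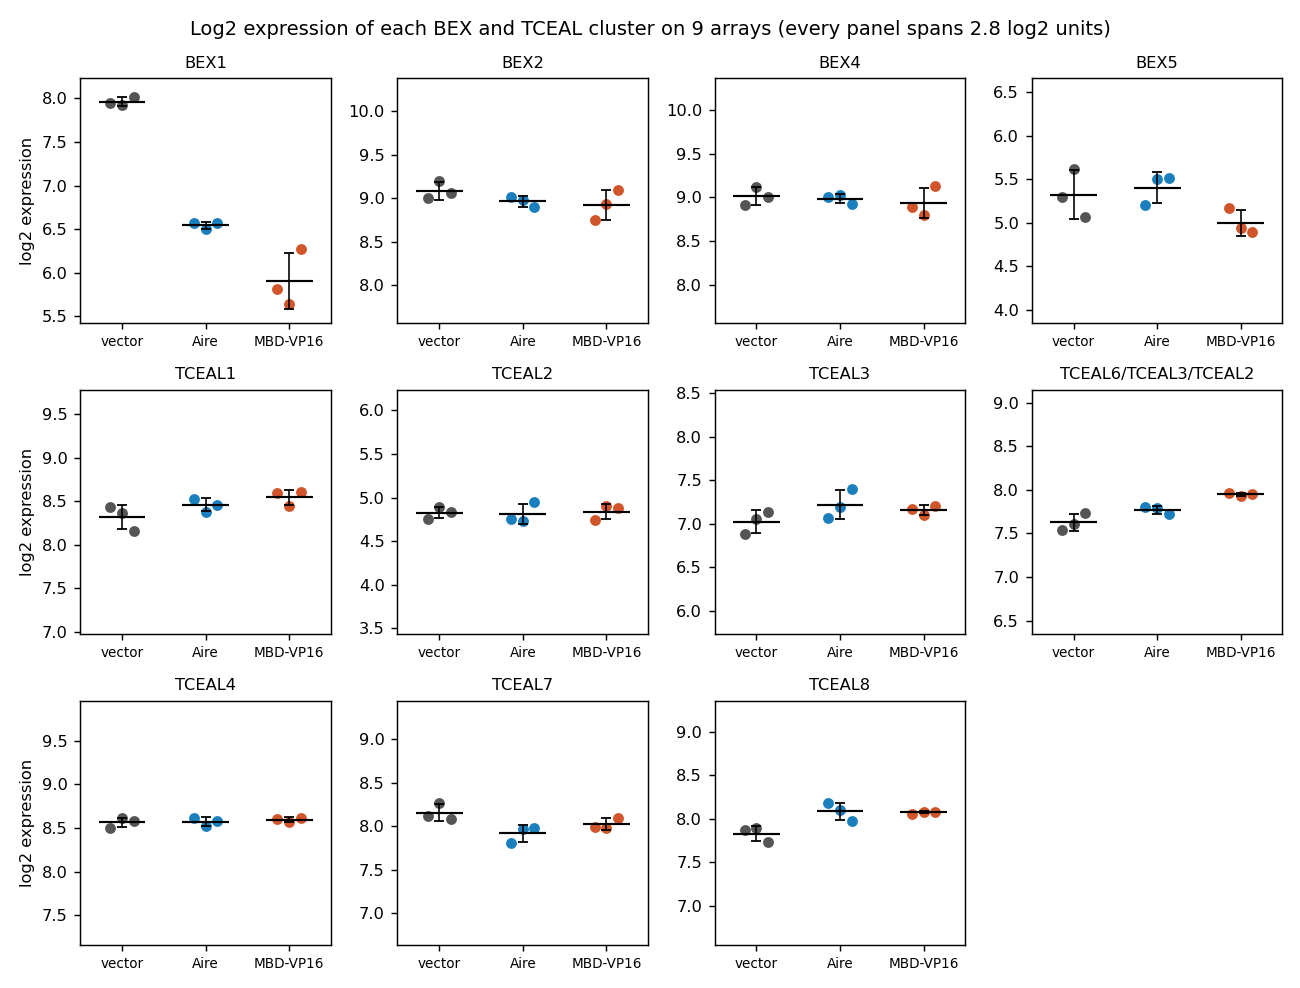
Log2 expression (vertical axis) of the 11 clusters on each array, by group (horizontal axis); points are arrays, horizontal bars are group means and error bars are SD (n = 3). Every panel spans the same number of log2 units, and BEX1 is the panel in which the groups stand far apart, from 8.02 on a vector array to 5.64 on an MBD-VP16 array.

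Relative to vector, BEX1 was lower by 2.67-fold with Aire (log2 difference −1.42 ± 0.14, SE of the linear model) and by 4.16-fold with MBD-VP16 (−2.06 ± 0.14). Of all 25679 clusters, 14 had a more negative difference with Aire and 2 with MBD-VP16. BEX1 was the 1 member cluster past an adjusted p of 0.05 in the lower direction in each comparison. Over all clusters 4.4% passed with Aire, 2.82% in the lower and 1.58% in the higher direction, and 9.89% passed with MBD-VP16, 5.14% in the lower direction. Because BEX1 was known to be low when the genes were proposed, these counts support nothing. Both comparisons use the same 3 vector arrays. A microarray of a mixed culture cannot tell fewer cells with BEX1 RNA from less BEX1 RNA per cell.

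The direct comparison asks whether BEX1 was lower with MBD-VP16 than with Aire. Each MBD-VP16 array lay below each Aire array, and the log2 difference was −0.64 ± 0.14 (SE; 95% interval −0.96 to −0.32), which is 1.56-fold. This did not pass the threshold (limma adjusted p = 0.0656, where 0.074% of all clusters passed in the lower direction; 0.00175 to 0.212 over 18 other settings, 4 of them under 0.05). Without MBD-VP16 replicate 3, the highest of its group, the difference was −0.82 (limma adjusted p = 0.00175). It was −0.51 without MBD-VP16 replicate 2 (limma adjusted p = 0.174). In the authors' deposited table the false discovery rate of this comparison for BEX1 was 0.0386. The direct comparison shares its arrays with both comparisons against vector, so it is not independent of how the genes were proposed.

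**Figure D2:**
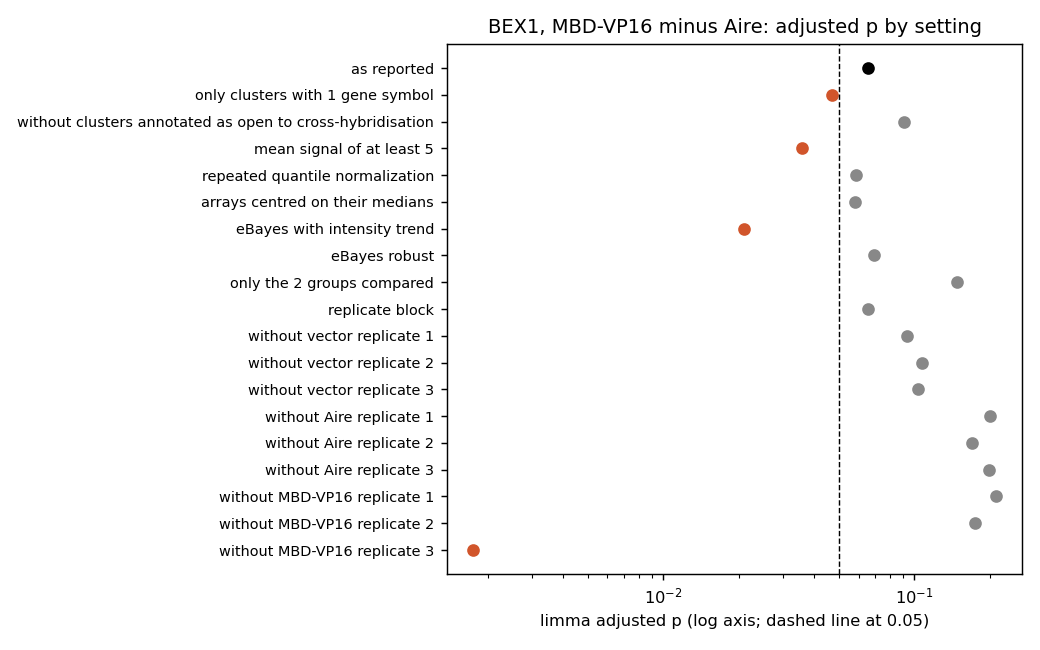
Limma adjusted p (horizontal log axis) for BEX1 in MBD-VP16 against Aire as reported (black, 0.0656) and under each other setting (vertical axis); orange points lie under the dashed line at 0.05 and grey points above it. The adjusted p lay between 0.021 and 0.212 in every setting shown except the one without MBD-VP16 replicate 3, at 0.00175.

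No other BEX member differed from vector by as much as BEX1. BEX2, a close paralog of BEX1 and a component of LMO2-containing complexes, read 9.0, 9.20 and 9.06 with vector, 9.02, 8.98 and 8.90 with Aire and 8.75, 8.94 and 9.09 with MBD-VP16. The groups overlapped, with log2 differences from vector of −0.12 ± 0.10 and −0.16 ± 0.10 (SE) whose 95% intervals began at −0.34 and −0.38. The names BEX1 and BEX2 were once exchanged, and the reference gene table lists each as an older name of the other; the clusters are identified here by Entrez identifiers 55859 and 84707. Both clusters are annotated as unique and not as open to cross-hybridisation.

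BEX4, which associates with tubulin, stayed within 0.33 log2 units over the 9 arrays. It read 8.91, 9.12 and 9.01 with vector, 9.0, 9.03 and 8.93 with Aire and 8.89, 8.80 and 9.13 with MBD-VP16. Its groups overlapped in each comparison. BEX5 had a low signal, where RMA compresses differences, and read 5.29, 5.62 and 5.06 with vector, 5.20, 5.50 and 5.51 with Aire and 5.17, 4.94 and 4.89 with MBD-VP16. Its MBD-VP16 arrays lay below its Aire arrays, by 0.40 in means, but the 3 vector arrays overlapped with both. Relative to vector BEX5 differed by 0.08 ± 0.15 with Aire and by −0.32 ± 0.15 with MBD-VP16 (SE). The 95% interval of the latter was −0.67 to 0.02, and 2055 of all 25679 clusters had a more negative difference. The direct difference of −0.40 ± 0.15 (SE; 95% interval −0.75 to −0.06) did not pass (limma adjusted p = 0.362).

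Upstream sequence is printed for BEX1 and BEX2 because they are paralogs with different values here and because the domain in the third construct is named for binding methylated CG. All 250 bases before the annotated start are given in the direction of transcription, with every CG in capitals (RefSeq, GRCh38.p14). Methylation was not measured on these arrays.
BEX1 (chrX:103064172-103064421, minus strand): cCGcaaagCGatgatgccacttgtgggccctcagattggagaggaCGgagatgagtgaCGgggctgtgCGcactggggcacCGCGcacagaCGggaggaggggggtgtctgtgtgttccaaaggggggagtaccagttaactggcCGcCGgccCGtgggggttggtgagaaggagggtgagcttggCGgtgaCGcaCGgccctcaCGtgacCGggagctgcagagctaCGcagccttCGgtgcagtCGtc
BEX2 (chrX:103310991-103311240, minus strand): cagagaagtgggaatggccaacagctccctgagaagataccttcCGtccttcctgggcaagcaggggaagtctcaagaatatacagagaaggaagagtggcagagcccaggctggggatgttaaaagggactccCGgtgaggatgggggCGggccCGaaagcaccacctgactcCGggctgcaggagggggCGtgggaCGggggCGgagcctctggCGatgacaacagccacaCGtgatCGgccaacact

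The BEX1 window holds 19 CG and that of BEX2 11, against a median of 11 over all promoters, and 65.4% of promoters have fewer CG than BEX1. TCEAL2 has 20 and TCEAL3 25, more than BEX1. The log2 differences between MBD-VP16 and vector were 0.01 for the single-gene cluster of TCEAL2, whose signal was low at a mean of 4.83, 0.13 for that of TCEAL3 and 0.32 for the cluster that TCEAL2 and TCEAL3 share with TCEAL6. Whether the count of CG goes with the differences was not tested.

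TCEAL8, whose function is little known, was higher than vector with both inserts. It read 7.87, 7.89 and 7.73 with vector, 8.18, 8.10 and 7.98 with Aire and 8.06, 8.08 and 8.08 with MBD-VP16. Every Aire and every MBD-VP16 array lay above every vector array, by 0.26 ± 0.08 and 0.24 ± 0.08 (SE) in means, or 1.19-fold and 1.18-fold. The Aire and MBD-VP16 arrays overlapped (difference −0.01, 95% interval −0.18 to 0.16). Neither difference from vector reached the threshold in the fit over all clusters.

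TCEAL7, which is silenced in ovarian cancer and restrains NF-kB activity, went the other way. It read 8.12, 8.27 and 8.08 with vector, 7.81, 7.97 and 7.98 with Aire and 7.99, 7.98 and 8.10 with MBD-VP16. All Aire arrays lay below all vector arrays, with a log2 difference of −0.24 ± 0.08 (SE), while the MBD-VP16 arrays overlapped with vector (−0.13 ± 0.08). TCEAL1, a nuclear phosphoprotein, read 8.43, 8.36 and 8.16 with vector, 8.53, 8.38 and 8.46 with Aire and 8.59, 8.44 and 8.60 with MBD-VP16. All MBD-VP16 arrays were above all vector arrays, by 0.23 ± 0.09 (SE), and the Aire arrays overlapped with both other groups.

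TCEAL2, TCEAL3 and TCEAL6 are closely related genes, and the clusters that read them differed. The cluster shared by TCEAL6, TCEAL3 and TCEAL2 read 7.54, 7.61 and 7.73 with vector, 7.80, 7.79 and 7.72 with Aire and 7.96, 7.93 and 7.95 with MBD-VP16. The MBD-VP16 arrays lay above all others, by 0.32 ± 0.07 (SE) against vector, and the SD of 0.015 among them was small. Its direct difference from Aire was 0.18 ± 0.07 and did not pass (limma adjusted p = 0.385). The cluster is annotated as open to cross-hybridisation.

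The single-gene cluster of TCEAL3 read 6.88, 7.06 and 7.14 with vector, 7.07, 7.19 and 7.40 with Aire and 7.17, 7.10 and 7.21 with MBD-VP16, and its groups overlapped. The single-gene cluster of TCEAL2 read 4.76, 4.89 and 4.83 with vector, 4.76, 4.73 and 4.95 with Aire and 4.74, 4.90 and 4.88 with MBD-VP16, with differences from vector of −0.01 and 0.01. The differences with MBD-VP16 were 0.01 for TCEAL2, at a low signal with a mean of 4.83, and 0.13 for TCEAL3 (95% interval −0.10 to 0.36). Both were smaller than the 0.32 of the shared cluster, but the TCEAL3 interval includes 0.32. TCEAL6 was read by the shared cluster alone. Which of the 3 genes gave the shared signal was not tested. TCEAL4, whose function is little known, was the steadiest member, with all 9 arrays between 8.50 and 8.62.

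**Figure D3:**
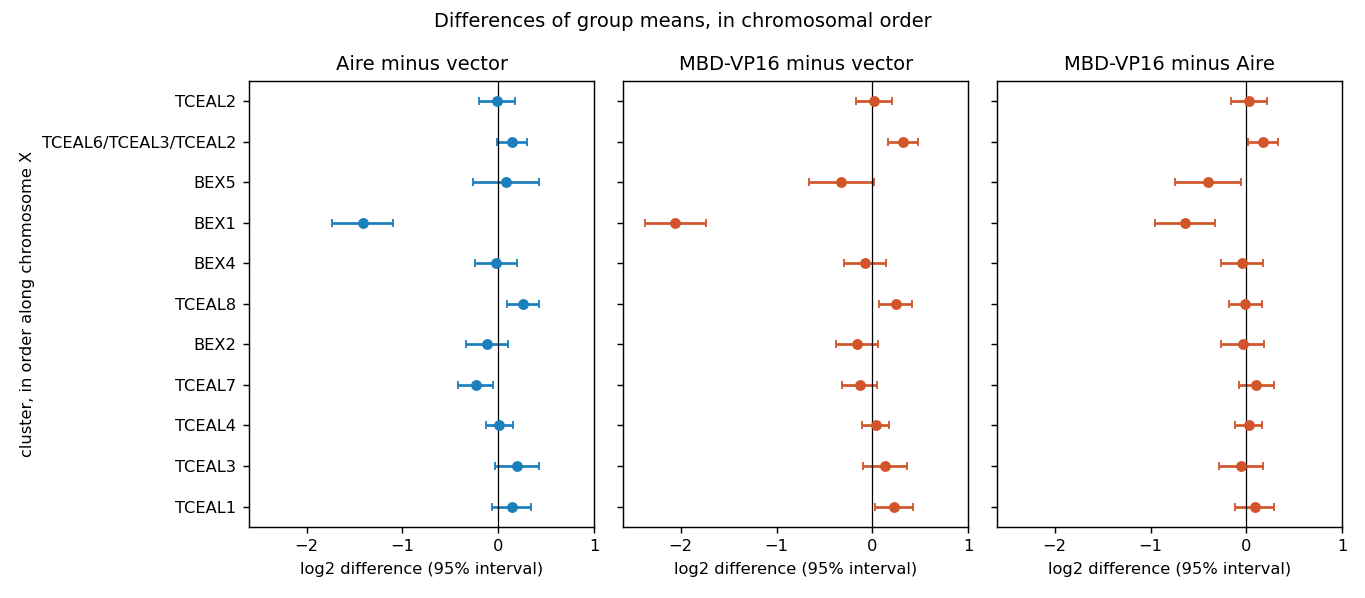
Differences of group means on the log2 scale (horizontal axis) with 95% intervals from the linear model, for the 11 clusters in their order along chromosome X (vertical axis), in the 3 comparisons. BEX1 stands at −1.42, −2.06 and −0.64, and the other 10 clusters lie between −0.24 and 0.26, between −0.32 and 0.32 and between −0.40 and 0.18.

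Taking the 11 clusters as a set, the median log2 difference was 0.01 with Aire and 0.01 with MBD-VP16, beside medians of 0.03 and 0.00 over all clusters. Without BEX1, 6 of 10 clusters were higher and 4 lower in each comparison with vector. The groups did not overlap for 3 of 11 clusters with Aire (24.9% of all clusters), 2 lower (12.6%) and 1 higher (12.3%), and for 4 of 11 with MBD-VP16 (28.3%), 1 lower (15.1%) and 3 higher (13.2%). Past the threshold were 1 of 11 with Aire (4.4% of all clusters) and 2 of 11 with MBD-VP16 (9.89%). With Aire this was BEX1, lower (2.82%). With MBD-VP16 these were BEX1, lower (5.14%), and the shared cluster of TCEAL6, TCEAL3 and TCEAL2, higher (4.75%). In the direct comparison limma called 0 of 11 at an adjusted p under 0.05, where 1.88% of all clusters passed, 1.8% in the higher direction. At an unadjusted p under 0.05 there were 3 of 11, beside 10.8% of all clusters. There 3 of 11 did not overlap (18.6% of all clusters), 2 lower (10.2%) and 1 higher (8.41%). The authors' deposited table has 1, 2 and 1 of the 11 clusters under a false discovery rate of 0.05 in the 3 comparisons. Over all 25679 clusters it has 1205, 2565 and 495.

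The other measured genes of the family were BEX3, TCEAL5 and TCEAL9. BEX3, the p75 receptor partner also known as NGFRAP1, read 9.82, 10.08 and 9.98 with vector, 10.16, 10.12 and 10.09 with Aire and 10.04, 10.05 and 10.14 with MBD-VP16. Its Aire arrays lay above vector by 0.16 ± 0.08 (SE; limma adjusted p = 0.287). TCEAL9 differed from vector by −0.03 and 0.05, with overlapping groups. TCEAL5 read 3.25, 3.40 and 3.27 with vector, 3.35, 3.52 and 3.45 with Aire and 3.58, 3.56 and 3.61 with MBD-VP16. It rose by 0.28 ± 0.07 with MBD-VP16 (SE; limma adjusted p = 0.0442), at a low signal, and passed in 5 of the 17 other settings that could be read for it (adjusted p 0.0321 to 0.170).

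The genes on either side of BEX1 did not pass the threshold. RAB40AL, its nearest single-symbol neighbour on 1 side, differed from vector by −0.05 ± 0.12 with Aire and by −0.23 ± 0.12 with MBD-VP16 (SE; limma adjusted p = 0.849 and 0.274). NXF3, an RNA export factor relative on the other side, differed by −0.07 ± 0.11 and 0.04 ± 0.11 (limma adjusted p = 0.780 and 0.856). The mean signal of NXF3 was 3.91 over the 9 arrays, a low signal at which a fall like that of BEX1 may not be visible, and that of RAB40AL was 5.67. A list of genes for the surrounding region of chromosome X was matched by symbol, and their positions were not checked. Of its 41 measured genes, 1 rose and 0 fell with Aire (1.58% and 2.82% of all clusters). With MBD-VP16, 4 rose and 0 fell (4.75% and 5.14% of all clusters). The list was chosen with earlier results of these data known and was not tested against these shares. TMSB15A, a thymosin that binds actin monomers, rose by 0.82 ± 0.14 with Aire and by 0.86 ± 0.14 with MBD-VP16 (limma adjusted p = 0.0169 and 0.00593), and passed in 13 of 18 other settings with Aire and in all 18 with MBD-VP16. With Aire it did not pass with only 2 groups fitted, without vector replicate 2 or without any 1 of the Aire replicates (adjusted p up to 0.0645). The homeobox gene ESX1 rose by 1.51 ± 0.12 with MBD-VP16 (limma adjusted p = 1.04e-04) and was higher than with Aire by 1.38 ± 0.12 (limma adjusted p = 2.39e-04). TAF7L, a testis relative of a TFIID subunit, and SYTL4, which acts in granule exocytosis, rose by 0.40 ± 0.07 and 0.42 ± 0.10 with MBD-VP16, SYTL4 in 9 of 18 other settings. The list's median difference was 0.05 with Aire and 0.04 with MBD-VP16.

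Genes tied to the members by function were counted from lists. Over all clusters, 1.58% were called higher and 2.82% lower with Aire, and 4.75% and 5.14% with MBD-VP16. Directly, 1.8% were called higher and 0.074% lower. The lists are short and were chosen with earlier results of these data known. Their counts were not tested against these shares. Of 31 transcription elongation genes, 0 rose and 1 fell with Aire, and 0 rose and 3 fell with MBD-VP16 (medians −0.05 and −0.07). CCNT1, the cyclin of the elongation kinase P-TEFb, fell by 0.37 and 0.35 and passed in 6 and 9 of 18 other settings. ELOA, the elongin A subunit, and TCEANC, a TFIIS-like gene, fell by 0.29 and 0.35 with MBD-VP16 and passed in 10 and 13 of these settings. Of 13 genes for reported BEX partners and p75 signalling, RIPK2, a kinase that docks on p75, was the 1 that fell in each comparison with vector, by 0.58 ± 0.13 and 0.76 ± 0.13 (SE; limma adjusted p = 0.0449 and 0.00846), and 0 rose. RIPK2 passed in 9 of 18 other settings with Aire and in all 18 with MBD-VP16. The list's medians were 0.01 and −0.01. Of 34 neural and neuroendocrine genes, 0 rose and 3 fell with Aire and 4 rose and 3 fell with MBD-VP16, and in the direct comparison 4 were higher and 0 lower with MBD-VP16 than with Aire (medians 0.06, 0.00 and −0.07). SCG3 and SCG2, secretory granule proteins as some neurons and endocrine cells make, fell in each comparison with vector, SCG2 by 0.48 ± 0.08 and 0.62 ± 0.08 (SE; 14 and 17 of 17 other settings). CHGB, another granule protein, fell by 0.60 with MBD-VP16 (limma adjusted p = 0.0450, 8 of 17 other settings). RUNDC3A fell by 0.43 with Aire (limma adjusted p = 0.0472, 7 of 18 other settings). The neurofilament genes NEFH and NEFM rose by 3.22 ± 0.15 and 2.40 ± 0.15 with MBD-VP16, and the RNA-binding ELAVL3 by 0.92 ± 0.12 (SE). INA, a neuronal intermediate filament, was higher with MBD-VP16 than with Aire by 1.65 ± 0.20 (limma adjusted p = 0.00228).

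The pattern of BEX1 over the 9 arrays was set against that of 17956 single-symbol clusters by the root mean square distance of values, each less the mean of the vector arrays. The nearest was SCG3, a secretory granule protein of neuroendocrine cells, at 0.405 log2 units. CPNE4, a copine that binds phospholipids, followed at 0.537, CFAP69, a cilium and flagellum protein, at 0.571, NPR3, the natriuretic peptide clearance receptor, at 0.577, and CCN1, a matricellular protein, at 0.581. SCG3 read 5.15, 5.03 and 5.18 with vector, 3.39, 3.36 and 3.43 with Aire and 3.86, 3.40 and 3.29 with MBD-VP16. Unlike BEX1, its Aire and MBD-VP16 arrays overlapped (difference 0.12 ± 0.13 SE, limma adjusted p = 0.838). SCG3 read 3.29 to 3.86 on those arrays, a low signal at which a further fall with MBD-VP16 may not be visible. CCN1 lay higher with MBD-VP16 than with Aire, by 0.26 ± 0.08 (limma adjusted p = 0.198), the opposite order to BEX1.

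**Figure D4:**
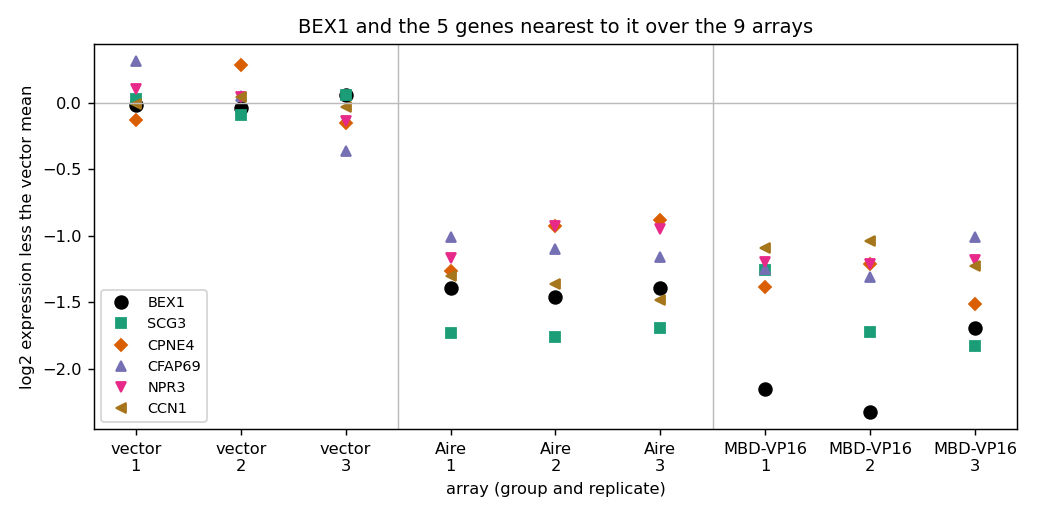
Log2 expression less the vector mean (vertical axis) of BEX1 and the 5 genes nearest to it, on each of the 9 arrays (horizontal axis). The 5 genes were picked for their nearness to BEX1 on these arrays, so by that choice all 6 lie low on the Aire and MBD-VP16 arrays. On MBD-VP16 replicates 1 and 2 BEX1 lies below the other 5. Of all 25679 clusters, 2 had a more negative mean difference from vector than BEX1 with MBD-VP16.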

How the data were processed

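Each transcript cluster has 1 log2 value per array as deposited by the authors; RMA is the tool in the submitters' processing notes, which corrects background, equalises the arrays and compresses differences at low signal. No software or annotation release is stated. Log2 fold changes and p-value columns (false discovery rates) of the authors' deposited table served as a comparison and for annotation; its 9 per-array columns were not used. Of 28829 clusters 3150 held no value, and 25679 were fitted with no filter on signal. Limma 3.58.1 in R 4.3.3 (lmFit, eBayes, group as the only factor, all 9 arrays) gave two-sided tests with Benjamini-Hochberg adjustment over all clusters, and was tested on simulated data. Standard errors and 95% intervals are those of the fit. The number of arrays, 3 per group, limits the precision. List symbols were updated by Entrez identifier (GRCh38.p14 gene table, names only), with the brightest cluster kept per gene. Members and lists were chosen with earlier results of these data known. The genes named are all members, every other measured family gene, up to 4 called genes per list and comparison, the 5 patterns nearest to BEX1, and, chosen after their values were seen, the genes next to BEX1. Levels of different clusters are not comparable.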

Additional observations from a re-analysis of the deposited data

How the results depend on the processing

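BEX1 was past an adjusted p of 0.05 in all 18 other settings in each comparison with vector. Its difference was −1.46 to −1.38 with Aire and −2.24 to −1.92 with MBD-VP16. The genes were chosen on these differences and the settings reuse the same arrays, so this adds no support. In the direct comparison 1 member, BEX1, passed when only clusters with 1 symbol or of mean signal of at least 5 were fitted, or with an intensity trend. TCEAL8 joined BEX1 with Aire under repeated quantile normalization or an intensity trend, making 2 members. With MBD-VP16 the members past the threshold were 3, with TCEAL8 added, at a mean signal of at least 5, under repeated quantile normalization or with an intensity trend (adjusted p of TCEAL8 0.0334 to 0.0426), and 1 instead of 2 with single-symbol clusters or without cross-hybridising ones, which remove the shared TCEAL6 cluster, and also 1 with only 2 groups fitted or with the replicate block. Leaving out each array in turn gave 1 member with Aire, 1 to 2 with MBD-VP16 (the shared TCEAL6 cluster lost its call without vector replicate 1 or 2 or any MBD-VP16 replicate) and 0 to 1 directly. The genes of the lists were read under the same settings, a step added after seeing the data, and none changed direction. The count over all clusters with Aire, 1131, was 1884 at a mean signal of at least 5 and 2308 with an intensity trend. It was 1203 under repeated quantile normalization, 309 with 2 groups fitted, 597 with the replicate block and 287 to 937 with an array left out. With MBD-VP16, 2539 became 3427 at a mean signal of at least 5, 2651 under repeated quantile normalization and 3814 with the trend. It became 2546 with single-symbol clusters and 2013 without cross-hybridising ones. It was 1469 with 2 groups, 1934 with the replicate block and 1346 to 2406 with an array left out. Directly, 482 became 367 with single-symbol clusters, 507 at a mean signal of at least 5 and 611 with the trend. It became 230 without cross-hybridising clusters and 312 to 507 with an array left out. Centring arrays on their medians moved the share of higher calls from 35.9% to 23.4% with Aire and from 48.1% to 27.6% with MBD-VP16. Deviations from the group means correlated at −0.0686 to 0.135 between same-numbered arrays. The labels do not say whether these arrays were handled together, and such correlations cannot settle it. For single members, 577 of 585 values were labelled unchanged. Against vector this means a difference moved by no more than the pooled SD of the cluster within groups. In the direct comparison it means only that the call stayed the same. Several settings leave the difference itself as it was, so this count was largely fixed in advance. The cause of the changed counts and calls was not tested.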
